A study of Rattus norvegicus with 12 samples.

Results

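Interleukins and their receptors were followed in the pubocaudalis, a muscle of the rat pelvic floor, after a simulated birth injury (SBI) with or without lactation. The genes were chosen by name: every gene whose symbol begins with Il and a digit and that had at least 10 counts summed over the 12 libraries was kept, which gave 56 of the 30206 genes in the table. They comprised 16 ligands, 33 receptor entries, 5 antagonists, binding proteins or decoys, and 2 others. A further 25 genes with such a name had fewer counts, and 17 of these had none in any library, among them Il4, Il13, Il11 and Il22. Just outside the limit were Il1rapl2 with 9 counts, Il17a with 8 and Il27 with 7, and just inside were Il23r with 12 and Il36b with 13. Enough counts for a test were found for 38 of the 56 genes, namely 8 ligands, 25 receptor entries, 3 of the antagonists and decoys, and both others.

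All animals were 3-month-old female Sprague-Dawley rats that received SBI, a vaginal balloon distention, late in pregnancy. After delivery the pups were either taken away (SBI) or left to nurse (SBI + Lac), and muscle was collected 1 week or 3 weeks after the injury, which gave 1wk SBI and 3wk SBI without nursing and the matching groups with it, 1wk SBI + Lac and 3wk SBI + Lac. There were 3 libraries in every group, and each library held the pooled RNA of 2 rats. No uninjured muscle was sequenced in the libraries used here, so each value is a comparison among injured muscles. A p-value measures the spread between pools, and since RNA from a whole muscle was read, fewer cells of a type and less RNA per cell cannot be told apart.

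Interleukins are secreted proteins by which immune, stromal and muscle cells signal to one another. Most act through receptors built from a ligand-binding chain and a signalling chain shared within a family, such as gp130 for the IL-6 family or the common gamma chain for IL-2, IL-7, IL-15 and IL-21, and these chains activate JAK and STAT proteins, while the IL-1 family signals through MyD88. Antagonists and decoy receptors bind a ligand or a receptor without passing a signal on. In skeletal muscle, IL-6 and IL-15 are made by the muscle fibers themselves, and IL-1, IL-4 and IL-10 are known from the inflammation and repair that follow injury.

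Levels are given as normalized CPM, the counts per 1000000 counts of a library after scaling by the trimmed mean of M values, and a gene was called where its edgeR adjusted p was below 0.05 and its fold change exceeded 1 on the log2 scale. Total counts ran from 10082734 to 75634391 per library. Myofiber markers such as Acta1 and Ckm were abundant in every library, with a summed level between 100700 and 249900 CPM. They mark skeletal muscle and cannot tell 1 muscle from another. Within their groups, 3 libraries stood apart in immune transcripts. The summed level of T cell and NK cell markers was 13.5 CPM in 1wk SBI replicate 2, the highest of its group, whose median was 6.94, and 21.4 CPM in 3wk SBI replicate 3, the deepest library, whose group had a median of 6.56. It was 9.59 CPM in 3wk SBI + Lac replicate 2, against 2.93 and 1.21 in the other libraries of that group.

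The genes for IL-15, a survival factor of NK cells and memory T cells, and for the ligand-binding chain of the IL-6 receptor were the members with an adjusted p below 0.05 in a lactation comparison, so the 250 bases before their annotated starts are shown. They were taken from RefSeq for the rat build GRCr8, in which all 56 entries matched by symbol and 49 had a promoter. The sequences run 5′ to 3′ on the strand of the gene, chr19:42544456-42544705 on the plus strand for Il15 and chr2:177645210-177645459 on the minus strand for Il6r, and capitals mark CpG dinucleotides.
Il15: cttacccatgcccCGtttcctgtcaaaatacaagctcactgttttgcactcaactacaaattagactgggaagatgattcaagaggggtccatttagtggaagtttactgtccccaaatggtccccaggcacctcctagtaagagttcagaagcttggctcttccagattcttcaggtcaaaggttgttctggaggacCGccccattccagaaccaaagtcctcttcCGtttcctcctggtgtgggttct
Il6r: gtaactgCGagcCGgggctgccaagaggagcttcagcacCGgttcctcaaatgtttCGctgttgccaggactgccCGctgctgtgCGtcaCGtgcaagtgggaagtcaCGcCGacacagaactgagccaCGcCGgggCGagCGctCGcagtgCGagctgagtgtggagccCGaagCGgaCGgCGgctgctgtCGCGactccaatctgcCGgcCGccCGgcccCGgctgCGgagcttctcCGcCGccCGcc
The Il15 stretch held 3 CpG dinucleotides at a GC content of 48.4%, and 39.2% of the 33469 promoters in the table had a lower GC content. The Il6r stretch held 29 CpG dinucleotides at a GC content of 68.8%, above 90.2% of promoters. Neither held TTCNNNGAA, the letters of the gamma-activated site to which STAT proteins bind, on either strand. Those letters were present in 7.67% of all promoters and in 3 of the 49 member promoters, those of Il12rb2, Il18r1 and Il36b. Such a match is a description of the letters and not of binding.

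Among the ligands, Il15 was the member called, and it was higher with lactation at both times. At 1 week it measured 4.90, 7.56 and 10.5 normalized CPM in 1wk SBI and 16.7, 18.9 and 13.5 in 1wk SBI + Lac. At 3 weeks it measured 14.1, 14.3 and 11.8 in 3wk SBI and 26.6, 29.9 and 24.1 in 3wk SBI + Lac. Every lactating library lay above every non-lactating library of its time point. The 1wk SBI + Lac libraries overlapped the 3wk SBI libraries, but that contrast was not tested, and whole counts meet estimated counts in it. The fold change was 1.10 on the log2 scale at 1 week (SE 0.22, edgeR adjusted p = 0.0407) and 1.02 at 3 weeks (SE 0.22, edgeR adjusted p = 0.0289). Over all genes tested, 0.253% were called at 1 week and 0.740% at 3 weeks. The call rested on all libraries together: of the 6 edgeR fits that each left out 1 library, 1 kept it at each time, that without 1wk SBI replicate 3 at 1 week (1.39) and that without 3wk SBI replicate 1 at 3 weeks (1.06). The other fits gave 0.86 to 1.23 at 1 week, with edgeR adjusted p from 0.0569 to 0.176, and 0.93 to 1.10 at 3 weeks, with edgeR adjusted p from 0.0511 to 0.134.

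Markers of the muscle fiber moved with Il15. Their summed level was 100700 to 160800 CPM in 1wk SBI and 158900 to 189200 in 1wk SBI + Lac, and 150800 to 205800 in 3wk SBI and 222900 to 249900 in 3wk SBI + Lac, and all 10 tested markers were higher with lactation at 1 week and 8 of 10 at 3 weeks. Per 100000 CPM of these markers, a ratio chosen after the values were seen, Il15 measured 4.38, 7.50 and 6.51 in 1wk SBI and 8.82, 9.98 and 8.50 in 1wk SBI + Lac. The same ratio was 7.39, 6.95 and 7.86 in 3wk SBI and 11.0, 11.9 and 10.8 in 3wk SBI + Lac. The groups stayed apart at both times on this scale.

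The other 7 tested ligands were not called. Il18, an IL-1 family cytokine that induces interferon gamma, measured 1.06, 1.62 and 1.43 CPM in 1wk SBI and 0.885, 0.271 and 0.669 in 1wk SBI + Lac, so the groups did not overlap, with a log2 fold change of -1.16 (SE 0.45, edgeR adjusted p = 0.177). At 3 weeks Il18 overlapped, at 0.644, 0.619 and 1.03 against 0.488, 0.992 and 0.769 CPM. Il7, a lymphocyte survival factor from stromal cells, measured 0.322, 0.433 and 0.828 CPM in 3wk SBI and 0.0977, 0.244 and 0 in 3wk SBI + Lac, with a log2 fold change of -1.90 (SE 0.81, edgeR adjusted p = 0.195). Il16, a lymphocyte attractant, was apart at 3 weeks, at 7.62, 7.49 and 9.46 against 6.90, 5.58 and 5.83 CPM, with a log2 fold change of -0.44 (SE 0.19, edgeR adjusted p = 0.211). Il23a, the p19 subunit of IL-23, measured 0.337, 0.456 and 0.164 CPM in 1wk SBI and 0.295, 0.712 and 0.382 in 1wk SBI + Lac, which overlapped. Il33, an alarmin of stromal nuclei, ranged from 23.2 to 38.4 CPM and Il34, a second ligand of the macrophage receptor CSF1R, from 2.04 to 9.88, and both overlapped at each time. Il1b, the inflammatory cytokine of activated macrophages, also overlapped at both times and was highest in 3wk SBI replicate 3, at 2.73 CPM. Il6, the acute cytokine that muscle releases, had 75 counts in all and was not tested.

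**Figure D1:**
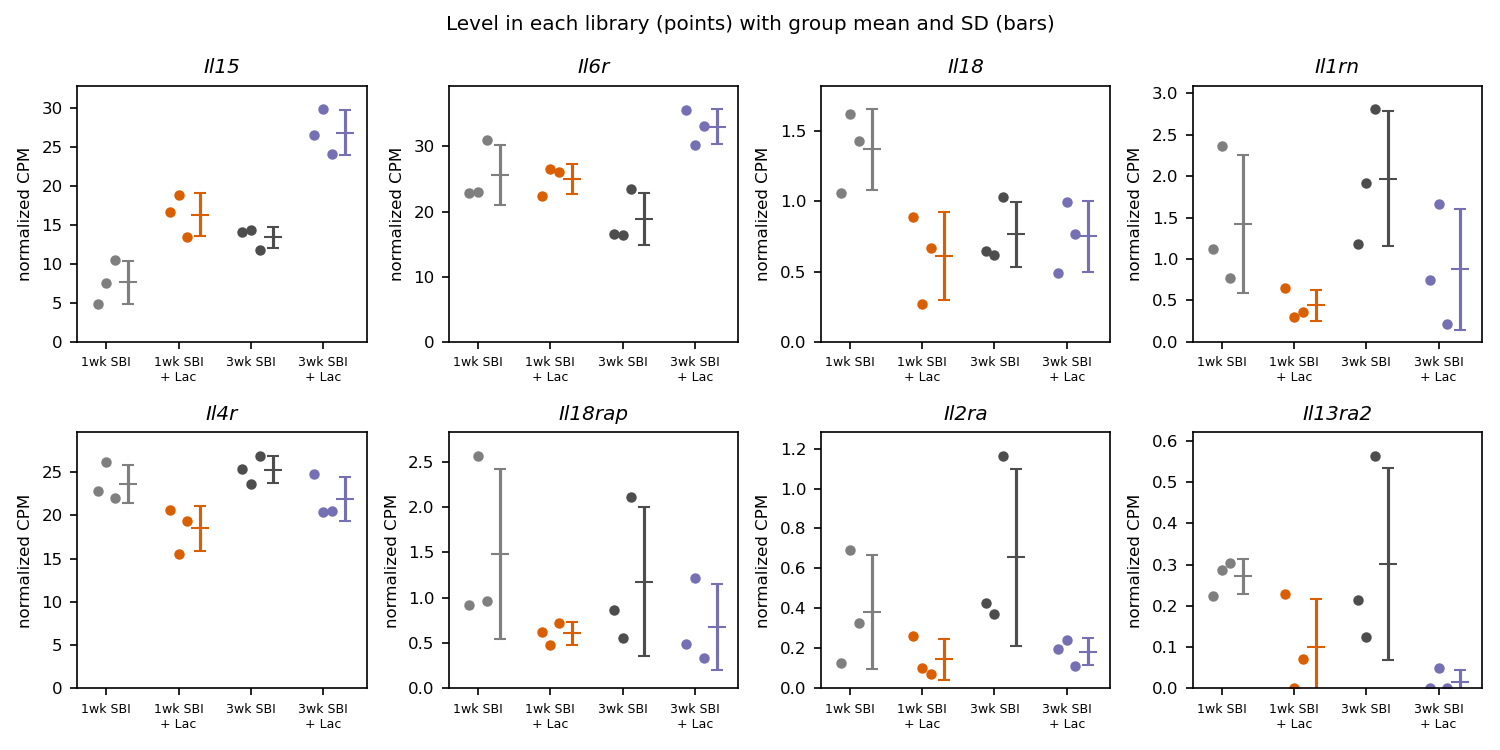
Normalized CPM of 8 interleukin genes in each library (points, 3 per group) with the group mean and SD beside them, for the 4 groups on the horizontal axis. Il15 was higher in every lactating library at both times, from 13.5 to 18.9 CPM against 4.90 to 10.5 at 1 week, while the groups of Il6r separated at 3 weeks, from 30.3 to 35.6 CPM against 16.4 to 23.5.

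Among the receptors, Il6r, which binds IL-6 and passes it to gp130, stood out at 3 weeks. It measured 16.6, 16.4 and 23.5 CPM in 3wk SBI and 35.6, 30.3 and 33.2 in 3wk SBI + Lac, a log2 fold change of 0.78 (SE 0.16, edgeR adjusted p = 0.0180) that fell short of the fold cutoff. The groups did not overlap at 3 weeks. At 1 week they did, at 22.9, 23.0 and 31.0 CPM in 1wk SBI and 22.3, 26.6 and 26.1 in 1wk SBI + Lac, with a log2 fold change of -0.03 (SE 0.15, edgeR adjusted p = 0.930). Leaving out 1 library at a time gave 0.69 to 1.00 at 3 weeks, with the edgeR adjusted p below 0.05 in 3 of 6 fits and between 0.0114 and 0.0806 in all, and thinning every library to the shallowest of its time point gave 0.66 with an edgeR adjusted p of 0.0704. Per 100000 CPM of the myofiber markers, Il6r measured 8.75, 7.97 and 15.6 in 3wk SBI and 14.7, 12.1 and 14.9 in 3wk SBI + Lac, which overlapped. The same ratio at 1 week was 20.4, 22.8 and 19.3 without lactation and 11.8, 14.1 and 16.4 with it, so lactating libraries were the lower ones there. Il6st, which encodes gp130, overlapped at both times, with log2 fold changes of -0.09 and -0.07.

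The listed receptor chains of IL-2 and IL-15 did not follow Il15. Il2rg, the gene of the common gamma chain, was not among the genes listed under such a name. Il15ra, the chain that presents IL-15 to neighbouring cells, measured 1.01, 1.15 and 1.66 CPM in 1wk SBI and 1.54, 1.42 and 1.07 in 1wk SBI + Lac. At 3 weeks Il15ra measured 3.22, 1.30 and 1.54 in 3wk SBI and 1.79, 1.92 and 1.43 in 3wk SBI + Lac. The groups overlapped at both times, and the log2 fold changes were 0.08 (95% interval -0.67 to 0.84) and -0.13 (95% interval -0.92 to 0.66). Il2rb, the signalling chain for IL-2 and IL-15, had log2 fold changes of -0.66 and -1.09, with edgeR adjusted p = 0.566 and 0.327. Il2ra, the CD25 chain of activated and regulatory T cells, measured 0.429, 0.371 and 1.16 CPM in 3wk SBI and 0.195, 0.244 and 0.110 in 3wk SBI + Lac. Its groups did not overlap at 3 weeks and the log2 fold change was -1.81 (SE 0.74, edgeR adjusted p = 0.177), from no more than 15 counts in any lactating library. Il7r, the IL-7 receptor chain, had log2 fold changes of -1.09 and -0.44, and Il21r, the IL-21 receptor, of -0.52 and -0.87, none with an edgeR adjusted p below 0.05.

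Il4r, the IL-4 receptor chain used by macrophages and fibroblasts, measured 22.8, 26.1 and 21.9 CPM in 1wk SBI and 20.6, 15.5 and 19.3 in 1wk SBI + Lac. The groups did not overlap, and the log2 fold change was -0.35 (SE 0.12, edgeR adjusted p = 0.141). At 3 weeks it was -0.21 (SE 0.13, edgeR adjusted p = 0.363) and the groups overlapped. Il18rap, the accessory chain of the IL-18 receptor, measured 0.913, 2.56 and 0.961 CPM in 1wk SBI and 0.623, 0.475 and 0.717 in 1wk SBI + Lac, with a log2 fold change of -1.28 (SE 0.57, edgeR adjusted p = 0.237), and overlapped at 3 weeks. Also apart and lower with lactation at 1 week were Il17ra, the common IL-17 receptor chain (-0.54), Il17re (-0.74), Il10ra, the ligand-binding chain for IL-10 (-0.62), and 1 of the 2 entries for the IL-27 receptor Il27ra (-1.16), all with an edgeR adjusted p from 0.263 to 0.316. The other Il27ra entry overlapped at 1 week, with a log2 fold change of -0.09 (edgeR adjusted p = 0.971). Il11ra1, the IL-11 receptor chain, overlapped at 1 week, at 15.9, 17.6 and 20.6 CPM against 21.0, 21.6 and 20.6 CPM. At 3 weeks the IL-17 receptor chain Il17rc overlapped, at 4.18, 5.57 and 5.95 against 5.83, 5.25 and 7.14 CPM. Il10rb was at 0 in 9 of 12 libraries, with 34 counts in 1wk SBI replicate 2 and none in the other 1-week libraries, so its fitted value is not given, though the gene counts among those tested.

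Some receptor genes lie side by side in the RefSeq order, with no other protein-coding gene between them. The longest run was Il1r1, Il1rl2, Il1rl1, Il18r1 and Il18rap, the receptors for IL-1, IL-36, IL-33 and IL-18. The 4 tested genes of this run were lower with lactation at 1 week, by log2 fold changes of -0.23, -0.46, -0.57 and -1.28 in that order for Il1r1, Il1rl1, Il18r1 and Il18rap, and at 3 weeks by -0.43, -0.18, -0.74 and -0.76. None had an edgeR adjusted p below 0.05. Il15ra and Il2ra are also neighbours.

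Il1rn at 1 week and Il13ra2 at 3 weeks had the most negative log2 fold changes of the tested members, Il10rb aside, and both were at low levels. Il1rn, the IL-1 receptor antagonist, measured 1.12, 2.36 and 0.773 CPM in 1wk SBI and 0.656, 0.305 and 0.358 in 1wk SBI + Lac. The groups did not overlap at 1 week, with a log2 fold change of -1.70 (SE 0.58, edgeR adjusted p = 0.135), whereas DESeq2 on those libraries alone gave an adjusted p of 0.0242. That DESeq2 setting also called more of all genes, 289 lower and 44 higher of 19265, against 24 and 13 of 14599 with edgeR. At 3 weeks Il1rn overlapped, at 1.18, 1.92 and 2.81 against 0.749, 1.66 and 0.220 CPM. Il13ra2, the IL-13 decoy receptor, had 2, 2 and 47 counts in 3wk SBI and 0, 3 and 0 in 3wk SBI + Lac. The ratio of the summed counts, scaled for depth, was 0.0632 (95% counting interval 0.0126 to 0.195, exact binomial), and 3wk SBI replicate 3 supplied 47 of the 51 counts without lactation. That interval covers counting error and not the spread between pools. The edgeR fit, which uses that spread, gave a log2 fold change of -3.54 (SE 1.10, edgeR adjusted p = 0.0917). Il18bp, which binds and blocks IL-18, measured 2.16, 3.00 and 2.74 CPM in 1wk SBI and 3.21, 3.76 and 2.46 in 1wk SBI + Lac, and overlapped. Il4i1, an amino acid oxidase induced by IL-4, overlapped at 3 weeks, at 0.429, 0.124 and 0.696 against 0.391, 0.569 and 1.65 CPM. Il13ra1-ps1, listed as a pseudogene of Il13ra1 with which reads may be shared, measured 17.3, 21.9 and 22.5 against 16.4, 18.5 and 13.2 CPM at 3 weeks, with an overlap and a log2 fold change of -0.35 (SE 0.15, edgeR adjusted p = 0.190).

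**Figure D2:**
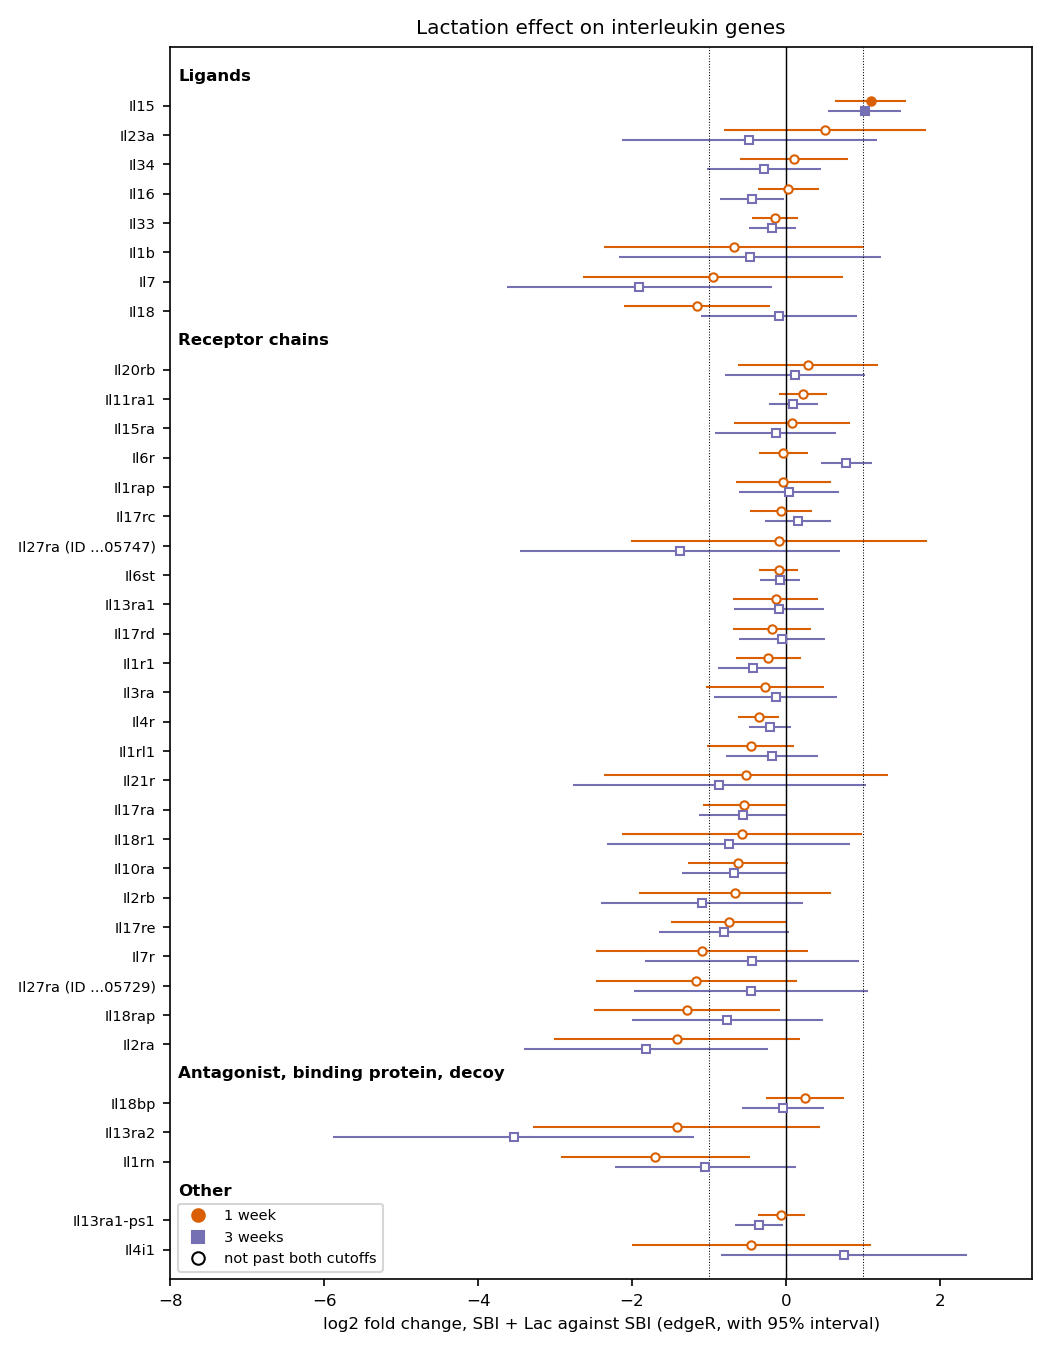
Log2 fold change of SBI + Lac against SBI (horizontal axis) with its 95% interval from edgeR for 37 tested interleukin genes, at 1 week (circles) and 3 weeks (squares). Filled symbols passed both cutoffs, dotted lines mark a log2 fold change of 1 in either direction, Il10rb is not drawn, and only Il15, at 1.10 and 1.02, is filled.

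Counted over the family, most tested genes were lower with lactation. At 1 week 30 of 38 had a log2 fold change below 0, against 50.5% of all genes tested, and the median was -0.31 against -0.0038 for all genes; without Il10rb these were 29 of 37 and -0.27. At 3 weeks 31 of 38 were below 0, against 52.3%, and the median was -0.35 against -0.019. Without Il10rb, left out after the values were seen, 30 of 37 were below 0 at 3 weeks and the median was -0.35. Receptors gave most of this: 22 of 25 were below 0 at 1 week with a median of -0.35, and 20 of 25 at 3 weeks with a median of -0.34. Without Il10rb these were 21 of 24 with a median of -0.31 and 19 of 24 with a median of -0.32. Ligands were split at 1 week, with 4 of 8 below 0 and a median of -0.055, and 7 of 8 were below 0 at 3 weeks with a median of -0.36. Few of these differences exceeded the spread between pools. At 1 week 8 of 38 genes were lower with no overlap between the groups, against 14.1% of all genes, and 1 was higher, against 14.3%. At 3 weeks 4 were lower, against 10.4%, and 2 were higher, against 11.9%. Of these 4, Il7 and Il13ra2 were apart only with a count of 0 read as 0. Their 0 in 3wk SBI + Lac replicate 3 could stand for up to 0.330 CPM. An unadjusted edgeR p below 0.05 was found at 1 week for 6 lower genes, against 9.16% of all genes, and 1 higher gene, against 9.76%. The numbers at 3 weeks were 5 lower, against 11.2%, and 2 higher, against 9.88%. No member was called lower at either time by edgeR.

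The same libraries supplied the highest values of most members. Of the 38 tested genes, 24 (63.2%) had their highest 1-week level in 1wk SBI replicate 2, where 17.7% of all tested genes had theirs. At 3 weeks 25 (65.8%) peaked in 3wk SBI replicate 3, against 24.9% of all genes. The lowest level fell in 1wk SBI + Lac replicate 2 for 17 genes and in 3wk SBI + Lac replicate 3 for 17 genes, and the latter, with 10704307 counts, had no count for 21 of the 56 members. Without 1wk SBI replicate 2, 17 of 25 receptors and 4 of 8 ligands were below 0 at 1 week, with a receptor median of -0.19. Without 3wk SBI replicate 3, 15 of 25 receptors and 3 of 8 ligands were below 0 at 3 weeks, with medians of -0.091 and 0.12. Without 3wk SBI + Lac replicate 2 the 3-week counts were 23 of 25 and 7 of 8, with medians of -0.38 and -0.43.

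**Figure D3:**
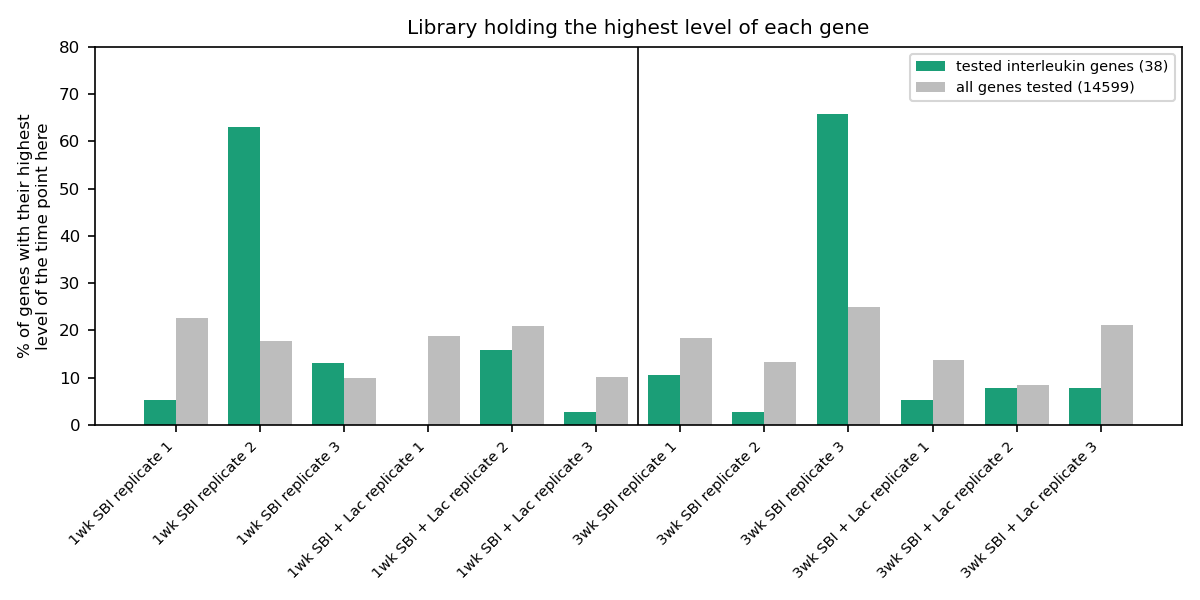
Percent of genes whose highest normalized CPM of the time point fell in each library (vertical axis), for the 38 tested interleukin genes and for all 14599 tested genes, with 1-week libraries on the left of the line and 3-week libraries on the right. Of the interleukin genes, 63.2% peaked in 1wk SBI replicate 2 and 65.8% in 3wk SBI replicate 3.

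**Figure D4:**
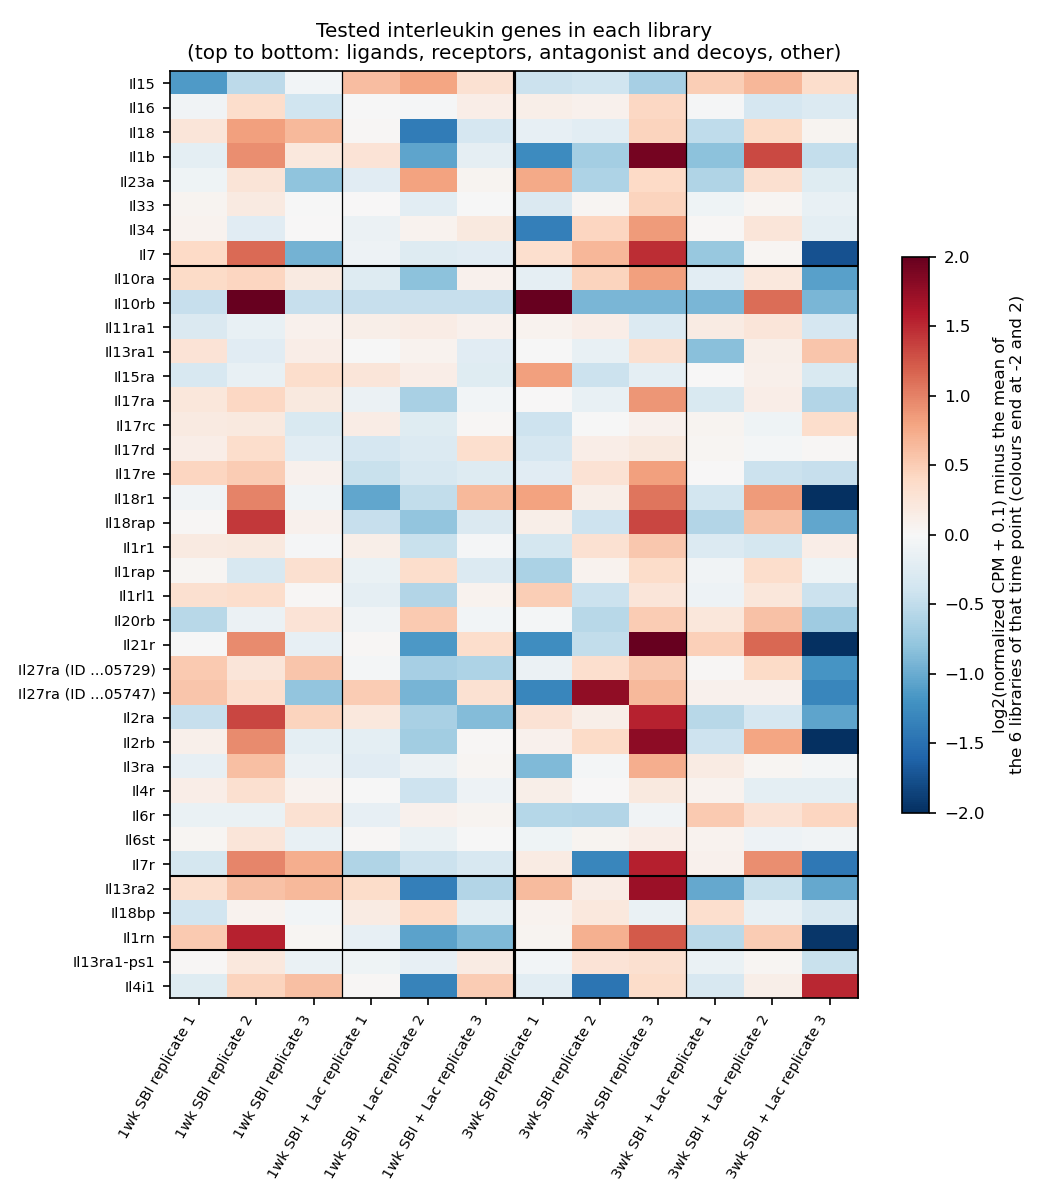
Deviation of log2(normalized CPM + 0.1) from the mean of the 6 libraries of the same time point (colour) for the 38 tested interleukin genes (rows) in the 12 libraries (columns). Most rows are red in 1wk SBI replicate 2 and 3wk SBI replicate 3, and Il15 in the top row is the reverse of them, blue or near 0 without lactation and red with it.

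Markers of immune cells moved with the receptors. All 13 tested T cell and NK cell markers were lower with lactation at both times, with summed levels of 6.05 to 13.5 CPM in 1wk SBI against 3.29 to 5.77 in 1wk SBI + Lac, and 6.22 to 21.4 in 3wk SBI against 1.21 to 9.59 in 3wk SBI + Lac. Of 16 macrophage and monocyte markers, 15 were lower at 1 week and 16 at 3 weeks, with summed levels of 626 to 699 against 405 to 571 CPM at 1 week and 471 to 1022 against 425 to 688 at 3 weeks. The log2 fold changes of the 3 tested B cell and 3 tested neutrophil markers were below 0 at both times. Summed B cell markers were at 2.93 to 4.03 CPM in 1wk SBI and 0.882 to 1.60 in 1wk SBI + Lac, but at 3 weeks the groups overlapped, at 3.33, 1.92 and 46.9 against 5.31, 33.9 and 2.20 CPM. Summed neutrophil markers were at 3.46 to 6.23 CPM in 1wk SBI and 2.23 to 2.68 in 1wk SBI + Lac, and overlapped at 3 weeks, at 1.40, 0.495 and 4.72 against 0.977, 1.69 and 1.21 CPM. Klrb1 and Elane were at 0 throughout. Of 9 fibroblast markers, 8 were lower at each time, with summed levels of 7133 to 10300 against 4171 to 7752 CPM at 1 week and 3472 to 7807 against 2113 to 3029 at 3 weeks. Mast cell markers were mixed, with 4 of 8 lower at 1 week and 3 of 8 at 3 weeks, as were endothelial markers, with 3 of 8 and 5 of 8. Red cell markers went the other way, with 5 of 5 higher at 1 week and 4 of 5 at 3 weeks, and 3 of 4 tested milk and mammary genes were higher at each time. Summed milk and mammary levels were 0.633 to 1.60 CPM in 1wk SBI and 1.28 to 3.32 in 1wk SBI + Lac. At 3 weeks they were 0.248 to 2.25 CPM in 3wk SBI and 39.9, 11.4 and 0.330 in 3wk SBI + Lac. Relative to a marker list, again a ratio chosen after the values were seen, 5 members overlapped at the time point where they had been apart. Of the members lower with lactation, the ratio was taken for these 5 alone. Il17ra, Il17re, Il10ra and 1 Il27ra entry, apart at 1 week, and Il7, Il16 and Il13ra2, lower at 3 weeks, were not put on such a scale. Per 1000 CPM of macrophage markers, Il4r measured 33.9, 37.3 and 35.0 in 1wk SBI and 41.1, 38.4 and 33.8 in 1wk SBI + Lac. At 3 weeks this Il4r ratio varied widely within each group, at 53.72, 48.81 and 26.27 against 53.85, 29.63 and 48.14. On that scale Il1rn measured 1.67, 3.38 and 1.24 against 1.31, 0.754 and 0.627 at 1 week, and Il18 measured 1.57, 2.32 and 2.28 against 1.77, 0.670 and 1.17. For both, the overlap rested on 1wk SBI + Lac replicate 1, and the other libraries of that group lay below every 1wk SBI library. At 3 weeks, where its plain CPM overlapped, Il1rn was apart and lower with lactation on that scale. It measured 2.504, 3.961 and 2.749 in 3wk SBI and 1.629, 2.411 and 0.5174 in 3wk SBI + Lac. Per CPM of T cell and NK cell markers, Il18rap measured 0.132, 0.190 and 0.159 in 1wk SBI and 0.108, 0.144 and 0.174 in 1wk SBI + Lac, and Il2ra measured 0.0690, 0.0566 and 0.0543 in 3wk SBI and 0.0667, 0.0254 and 0.0909 in 3wk SBI + Lac. The part that any cell type had in the members' levels was not tested.

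**Figure D5:**
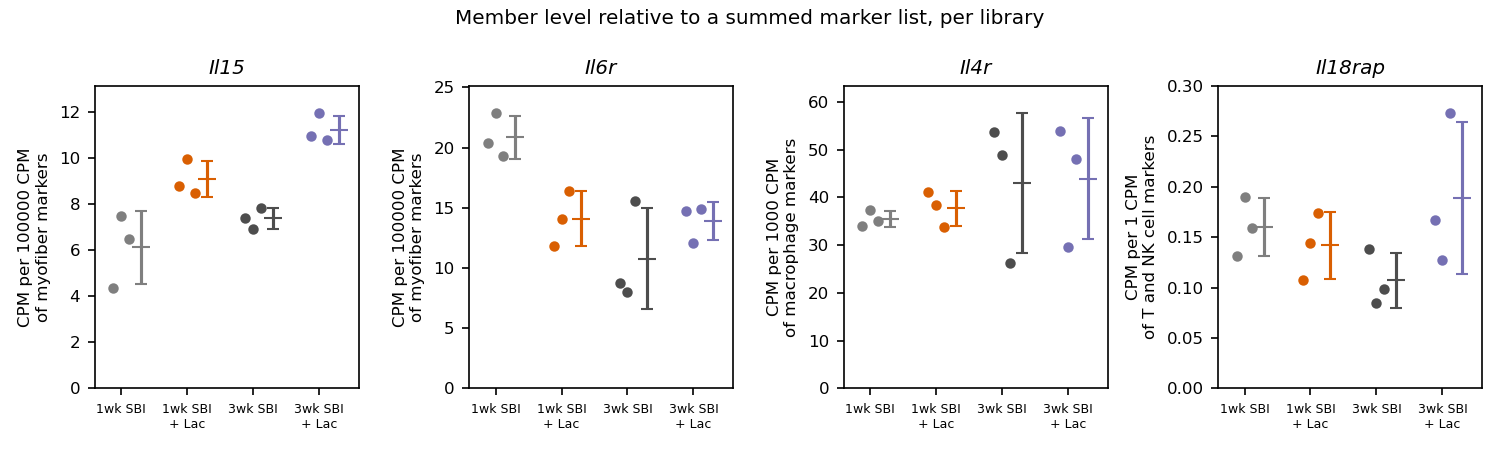
Level of 4 interleukin genes in each library (points) divided by the summed level of a marker list, with group mean and SD, for Il15 and Il6r per 100000 CPM of myofiber markers, Il4r per 1000 CPM of macrophage markers and Il18rap per CPM of T cell and NK cell markers. Il15 stayed apart at both times, at 8.50 to 9.98 against 4.38 to 7.50 at 1 week, and Il4r and Il18rap overlapped.

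Whether lactation acted differently at the 2 times was tested directly. No member was called, against 0.00685% of all genes, and 1 member, Il6r, had an unadjusted edgeR p below 0.05, against 1.67% of all genes in that direction and 2.75% in the other. Its lactation effect was larger at 3 weeks by 0.82 on the log2 scale (SE 0.22, edgeR adjusted p = 0.868). For Il15 the effects differed by -0.08 (95% interval -0.73 to 0.58). Between 1 and 3 weeks no member was called without lactation, against 1.46% of all genes, or with it, against 0.774%. Without lactation 2 members had an unadjusted edgeR p below 0.05 and were higher at 3 weeks, against 11.3% of all genes, and 2 were lower, against 9.94%. With lactation 2 were higher, against 8.36%, and 3 lower, against 9.78%. Il15 was higher at 3 weeks in both, by 0.80 without lactation (SE 0.22, edgeR adjusted p = 0.0515) and 0.73 with it (SE 0.21, edgeR adjusted p = 0.0926), and the libraries of the 2 times did not overlap in either. Without 1wk SBI replicate 3 the first of these was called, at 1.09 with an edgeR adjusted p of 0.00310. Il6r went the other way without lactation, at -0.42, and was higher by 0.40 with it, both with an edgeR adjusted p above 0.1. Il17re, the chain that binds IL-17C, had log2 fold changes of -0.82 and -0.88 between the times. Its edgeR adjusted p was 0.202 without lactation and not below 0.241 with it. Il20rb, a chain of the IL-20 receptors, was at 0.94 without lactation (edgeR adjusted p = 0.223), and its groups overlapped. The 1-week columns held whole counts and the 3-week columns estimated counts, so time and counting cannot be told apart in these comparisons.

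Genes linked to interleukin signalling were read from 4 lists, the fourth of which held further cytokines and receptors. None of their members was called at 1 week by edgeR, against 0.253% of all genes. Unadjusted edgeR p values below 0.05 were found there for 3 lower and 1 higher of the JAK, STAT and SOCS genes and 2 and 3 of the MyD88 and IRAK genes. They were found for 1 and 0 of the inflammasome genes and 1 and 3 of the fourth list, against 9.16% lower and 9.76% higher of all genes. In the same order the numbers at 3 weeks were 4 and 1, 2 and 2, 1 and 0, and 2 and 1, against 11.2% and 9.88%. Of 21 tested JAK, STAT and SOCS genes, 12 were lower and 9 higher at each time, and those with the smallest p were Cish, a feedback inhibitor induced by STAT5 (-0.95, edgeR adjusted p = 0.0711), and Stat5b (0.37, edgeR adjusted p = 0.171) at 1 week, and Stat6, which acts downstream of Il4r (-0.46, edgeR adjusted p = 0.0712), and Stat3 (-0.31, edgeR adjusted p = 0.141) at 3 weeks. Of 19 MyD88 and IRAK relay genes, 10 were lower at 1 week and 7 at 3 weeks. Nfkbia, the NF-kB inhibitor, and the kinase gene Ikbkb were at 0.63 and 0.54 at 1 week with edgeR adjusted p = 0.0614 and 0.0632. Traf3, an adaptor that restrains NF-kB signalling, was lower at 3 weeks by a log2 fold change of -0.42 (edgeR adjusted p = 0.0454), short of the fold cutoff, and Tab2 was at 0.48 (edgeR adjusted p = 0.0608). All 8 tested inflammasome and caspase-1 genes, which process IL-1 beta and IL-18, were below 0 at both times, against 50.5% and 52.3% of all genes. Their medians were -0.43 and -0.60, without a call. The summed level of this list overlapped at 3 weeks, at 19.5, 23.2 and 35.9 against 18.9, 22.2 and 16.3 CPM, and was highest in 3wk SBI replicate 3. Within the list the lowest p values belonged to Nlrp3 (-0.83, edgeR adjusted p = 0.161) and Nlrp1a at 1 week and to Gsdmd (-0.66, edgeR adjusted p = 0.198) and Casp4 at 3 weeks.

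The fourth list held cytokines and receptors under other names, mainly of the IL-6 and common-beta families but also Csf1, Csf1r, Tslp and Crlf2. Of its 16 tested genes, 1 was called higher at 3 weeks, against 0.205% of all genes. Cntfr, the receptor chain for ciliary neurotrophic factor, which also pairs with gp130, measured 6.54, 4.58 and 3.77 CPM in 3wk SBI and 15.3, 10.7 and 12.2 in 3wk SBI + Lac, a log2 fold change of 1.43 (SE 0.30, edgeR adjusted p = 0.0242). The groups did not overlap, nor did they at 1 week, at 2.92, 3.36 and 6.79 against 9.51, 9.39 and 8.89 CPM (log2 fold change 1.10, edgeR adjusted p = 0.0711). Of the 16, 9 were below 0 at 1 week and 12 at 3 weeks. Csf2 and Csf3 had no count in any library.

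The 18 members below the low-count filter had between 12 and 86 counts in all and never exceeded 0.660 CPM. They included Il1a, Il6, Il10, Il12a, Il12b, Il17b, Il21 and Il36b among the ligands, so these cytokines were not tested. In 3wk SBI + Lac replicate 3, an undetected gene could still have been at up to 0.330 CPM, the level of 3 counts, against 0.0360 CPM in 3wk SBI replicate 3. Il12b had 4, 13 and 1 counts in 1wk SBI and none in 1wk SBI + Lac. Il21, a helper T cell cytokine, had its highest level in 3wk SBI + Lac replicate 3, at 0.659 CPM. These limits cover counting error only.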

How the data were processed

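Pubocaudalis RNA was read as poly(A)-selected, stranded, paired-end libraries, 3 per group. The authors deposited raw counts per gene in one table: the 1-week columns hold whole counts, and the deposited 3-week columns hold decimals, taken as estimated counts and rounded for the tests. The submitters' processing notes name Salmon, and the genome build and annotation are not given in the sources used here. Each column was matched to a sample by its label. Members and lists were chosen with earlier results of these data known.

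edgeR 4.0.16 in R 4.3.3 was used with TMM normalization, the filterByExpr filter (14599 genes kept) and a robust quasi-likelihood fit of the 4 groups over 12 libraries, with Benjamini-Hochberg adjustment over all genes kept. A call needed an adjusted p below 0.05 and an absolute log2 fold change above 1. Per-library values were given for members called, for the 4 with the smallest p in each direction of each lactation comparison, and for Il15 and Il15ra, and lists were read by their calls or 2 smallest p values; others, such as Il16 and Il33, were named after their values were seen. The script was tested on simulated data. Alternatives were DESeq2 1.42.0, other normalizations, filters, cutoffs, depths and sample sets, the replicate number as a block, and each library left out. Totals ran from 10082734 to 75634391 counts, which sets the precision of low genes. A count of 0 was read as at most 3 counts.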

Additional observations from a re-analysis of the deposited data

How the results depend on the processing

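Il15 was higher with lactation under every alternative at both times, and the number of members called was sensitive to the settings. At 1 week 1 member was called, against 0 with edgeR on only the libraries compared (Il15 at 1.10, edgeR adjusted p = 0.0648) and 0 with the replicate block. DESeq2 on only the libraries compared called 2 (Il15 and Il1rn), and leaving out libraries in turn gave 0 to 1. Over all genes 24 lower and 13 higher of 14599 were called, against 90 and 20 of 14311 with edgeR on only the libraries compared. The replicate block called 3 and 5 of 14599, and DESeq2 on only the libraries compared 289 and 44 of 19265. Leaving out 1 library gave from 1 and 1 to 171 and 64. At 3 weeks 1 member was called, against 0 with the replicate block, 2 with the adjusted p cutoff alone or at 0.1, and 0 to 1 without 1 library. Over all genes 78 lower and 30 higher were called there, against 39 and 25 with the replicate block and 174 and 197 with the adjusted p cutoff alone. Leaving out 1 library gave from 8 and 14 to 106 and 51. The comparison of 3 with 1 week without lactation gave 0 to 1 without 1 library, and the difference between the lactation effects and the comparison with lactation gave 0 throughout. Same-numbered pools did not deviate together (r from -0.233 to -0.0503), though so few correlations cannot exclude a shared batch. The numbers name different rats in each group, so the main fit did not pair the pools. With the replicate block Il15 was at 1.11 and 1.02 (edgeR adjusted p = 0.0744 and 0.0524). With at least 10 counts required in every library fewer genes were tested, and 1 of 4 ligands and 11 of 13 receptors were below 0 at 1 week and 3 of 4 ligands and 9 of 13 receptors at 3 weeks. On only the libraries compared, 4 of 5 ligands were below 0 at 3 weeks. Left-out libraries took the number of ligands below 0 at 3 weeks from 3 to 7 and their median from -0.43 to 0.12, the upper value without 3wk SBI replicate 3. Effects near 0 changed sign without 1 library: Il15ra ran from -0.061 to 0.32 at 1 week and from -0.34 to 0.28 at 3 weeks, Il6r from -0.11 to 0.13 at 1 week, and the difference between the lactation effects from -0.37 to 0.16 for Il15 and from -0.46 to 0.20 for Il15ra; the cause was not tested. Depth limits members with few counts, such as Il13ra2, Il2ra and Il7.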
